A study of Caenorhabditis elegans with 2 samples.

Results

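The promoters of the heat shock protein and chaperone genes of Caenorhabditis elegans were examined for peaks of a chromatin immunoprecipitation with sequencing (ChIP-seq) experiment. The genes were chosen by name: all nuclear protein-coding genes whose symbol starts with hsp, dnj, cct, pfd, stip or sti, followed by a number, with daf-21 under its present symbol hsp-90. This gave 67 of 19973 nuclear protein-coding genes. They were 29 J proteins, 13 small heat shock proteins (6 hsp-16 genes and 7 others), 8 subunits of the cytosolic chaperonin CCT, 6 prefoldin subunits, 6 genes of the HSP70 and HSP110 family, 2 HSP90 genes, hsp-60, sti-1 and stip-1. The last, stip-1, fits the name pattern but is known as a partner of splicing factors and not as a chaperone.

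Chaperones keep other proteins from aggregating and help them fold. HSP70 proteins bind unfolded stretches and are recruited by J proteins, CCT and HSP60 enclose their clients in a barrel, prefoldin hands new actin and tubulin to CCT, and small heat shock proteins hold unfolded proteins until they can be refolded. Many are needed in every cell, whereas the hsp-16 genes and hsp-70 of the worm are known for being nearly silent until heat activates the transcription factor HSF-1, which binds clusters of the heat shock element.

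The samples were 2 biological replicates of whole mid-embryos, 3.5 hours old and synchronised by bleaching for eggs, from the transgenic strain OP787. The strain carries wgIs787, in which T27A8.2 is joined to TY1, EGFP and 3xFLAG tags, with unc-119(+) as a working copy in an unc-119(tm4063) background. The labels name tab-1 as the precipitated protein, but the genotype tags T27A8.2, and the annotation holds these as separate genes on chromosomes II and X. The samples are therefore called labelled tab-1. Both replicates belong to 1 group and 1 strain, no heat treatment is labelled, and data of the control experiment that the labels point to were not used here. Chromatin was sonicated to 200 to 800 bp and precipitated with an antibody against GFP. Whole embryos were used, so a site in a few cells and a weak site in many cannot be told apart.

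A promoter window ran from 1000 bp upstream to 200 bp downstream of any annotated 5′ end. The deposited lists were of candidates ranked by the irreproducible discovery rate (IDR, the estimated share of peaks that do not repeat between 2 sets), and of peaks past an IDR of 0.01. The sequences that follow are examples, and the words in capitals do not separate sites from windows without a thresholded summit. At the summits of cct-7 and dnj-9, the 101 bp, not printed here, held none of these words. Printed are the 201 bp around the summit at hsp-60, a site of all 4 thresholded lists, and 101 bp around the summits at dnj-13 and dnj-5. Beside them are stretches upstream of hsp-16 genes, which held no thresholded summit. The stretch of hsp-16.48 lies in an inverted repeat of identical copies, where reads cannot be placed by sequence. A missing summit there is not informative. All sequences are of the plus strand of the RefSeq genome on build WBcel235. In the order printed they are at III:1619025-1619225, V:1804958-1805177, V:9087931-9088045, II:11545485-11545585 and II:6859012-6859112. Capitals mark the pairs of heat shock element units GAANNTTC and TTCNNGAA, which can overlap by 3 bases, and, around the summits, also GAGAGA on either strand and GCGCGC.
hsp-60 summit: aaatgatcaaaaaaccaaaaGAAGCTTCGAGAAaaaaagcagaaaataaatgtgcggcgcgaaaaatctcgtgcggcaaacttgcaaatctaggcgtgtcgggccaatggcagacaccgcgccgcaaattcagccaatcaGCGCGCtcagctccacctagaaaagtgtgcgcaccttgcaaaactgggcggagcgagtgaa
between hsp-16.2 and hsp-16.41: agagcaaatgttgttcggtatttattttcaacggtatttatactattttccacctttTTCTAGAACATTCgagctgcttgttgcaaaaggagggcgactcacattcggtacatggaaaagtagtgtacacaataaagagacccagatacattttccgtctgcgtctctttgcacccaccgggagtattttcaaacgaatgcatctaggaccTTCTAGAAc
upstream of hsp-16.48: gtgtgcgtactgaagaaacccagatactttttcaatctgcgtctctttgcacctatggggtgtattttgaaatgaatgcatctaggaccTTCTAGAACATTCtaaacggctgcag
dnj-13 summit: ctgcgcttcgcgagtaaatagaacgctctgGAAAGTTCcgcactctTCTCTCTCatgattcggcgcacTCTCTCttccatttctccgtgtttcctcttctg
dnj-5 summit: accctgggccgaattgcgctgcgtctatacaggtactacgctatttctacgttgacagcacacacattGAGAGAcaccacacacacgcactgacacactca

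The hsp-16.2 and hsp-16.41 genes point away from each other, and the 220 bp between their 5′ ends held 3 of these pairs (1 GAANNTTC and 2 TTCNNGAA). The 115 bp shown for hsp-16.48 held 1 of each. The hsp-60 stretch held 1 of each, sharing bases, and the dnj-13 stretch held 1 GAANNTTC and none of the other form. The 101 bp at dnj-5 held neither.

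Summits were present in the windows of 5 of 67 members (7.46%) in the authors' conservative list of both replicates, against 2.97% of all nuclear protein-coding genes. These members were dnj-29, hsp-60, dnj-19, dnj-5 and dnj-28. In the other thresholded list of both replicates, the count was 10 of 67 (14.9%), against 3.47% of all genes. It held the same 5 and added cct-7, dnj-13, hsp-1, dnj-9 and hsp-3. In replicate 1's own list, 4 members (5.97%) had a summit, against 1.08% of all genes. In replicate 2's own list, 7 members (10.4%) had one, against 2.08%. The members' share was higher than that of all genes in each of the 4 lists, but it rests on 4 to 10 genes, and the lists share libraries. With each conservative summit given only to the gene with the nearest 5′ end, at any distance, the shares were 5.97% of members and 5.68% of all genes. That rule drops the window, and it took in dnj-24, which had no thresholded summit in its window. Of genes with a conservative summit in the window, 3 of 5 members and 469 of all 594 had the nearest 5′ end to a summit. No test over the members was made.

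**Figure D1:**
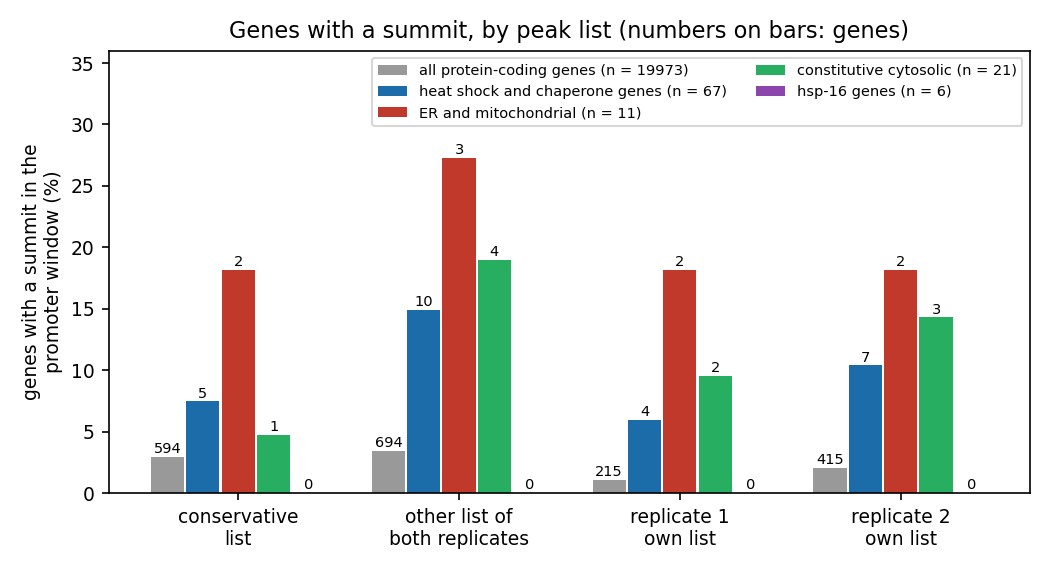
Share of genes (%) with a peak summit in the promoter window, for the 4 thresholded peak lists along the horizontal axis. Bars are all nuclear protein-coding genes, all 67 members, and 3 classes of members, with the number of genes on each bar; the hsp-16 genes are at 0 in every list, and the members stand above all genes in every list.

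Of the 10 members with a thresholded summit, dnj-29, hsp-60 and dnj-19 were in all 4 lists. The signal quoted here is the peak caller's value, whose scale is not stated, and signals of each replicate come from that replicate's own candidate list. The dnj-29 gene encodes a J protein of the endoplasmic reticulum (ER) membrane, a homologue of SEC63, which works at the translocation channel. Its site, on chromosome I with its summit at 14113264, had a signal of 267 in the conservative list, rank 129 of 1313. Replicate 1 gave 120 and replicate 2 gave 126, so the replicates were close. The summit lay 156 bp upstream of the dnj-29 5′ end, between genes, and also within the windows of the divergent ndua-2, a subunit of respiratory complex I, and of fld-1. A further, weak peak of signal 9.11 followed at 14113464, 356 bp upstream.

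The hsp-60 gene encodes the mitochondrial chaperonin. Its site at III:1619071-1619200 had a signal of 240, rank 152 in the conservative list. Replicate 1 gave 92.6 and replicate 2 gave 137, both above every other member except dnj-29 in replicate 1. The summit at 1619125 lay 617 bp upstream of hsp-60 and 196 bp upstream of Y22D7AL.10, which RefSeq names as the mitochondrial heat shock protein of 10 kDa, the lid of the HSP60 barrel. The 813 bp between the 5′ ends of this divergent pair thus held 1 strong site, nearer to the lid's gene. The symbol Y22D7AL.10 does not match the name rule, so this gene is not counted as a member.

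The dnj-19 gene encodes a type A J protein of the cytosol. Its site had a signal of 114 with replicates at 51.2 and 61.1, and its summit at V:5505266 lay 409 bp upstream. The same summit was 13 bp inside the 5′ untranslated region of the neighbouring nhr-47, a nuclear hormone receptor gene transcribed the other way. The dnj-5 site had a signal of 92.8 with replicates at 46.8 and 46.6. It was in neither replicate's own thresholded list although the replicates were nearly equal, and its summit stood 761 bp upstream, with no other gene's window over it. The dnj-28 site had a signal of 83.4 with replicates at 37.8 and 63.6, and its summit stood 152 bp upstream, in a window shared with the divergent supr-1. It was in replicate 2's own list and not in that of replicate 1.

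The 5 members that only the other list added had signals from 69.6 to 90.5, overlapping those of the conservative 5, whose lowest was 83.4 at dnj-28. For cct-7, a CCT subunit, the signal was 90.5 with replicates at 31.4 and 64.1, and the 5′ end of T10B5.4, 118 bp from the summit, was nearer than that of cct-7 at 321 bp. For dnj-13, a type B J protein that works with cytosolic HSP70, it was 87.9 with replicates at 30.5 and 46.6, and the summit lay 166 bp upstream within an exon of the non-coding gene F54D5.22. For hsp-1, the constitutive cytosolic HSP70, it was 79.9. Its replicates were 56.7 and 21.2, the one site of the 10 with replicate 1 more than 1.5 times replicate 2. The hsp-1 summit fell 103 bp downstream of the 5′ end, in coding sequence, and was the only one of the 10 inside its gene.

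For dnj-9, another J protein, the signal was 73.8 with replicates at 28.5 and 52.6, and the summit stood 258 bp upstream. For hsp-3, 1 of the 2 BiP genes of the ER, it was 69.6 with replicates at 30.5 and 37.6, and the summit stood 41 bp upstream. The hsp-3 site, like that of dnj-5, was in neither replicate's own list. Replicate 2's own list held cct-7, dnj-13 and dnj-9, and replicate 1's own list held hsp-1. Over both own lists, 8 members were present in at least 1 and 3 in both.

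**Figure D2:**
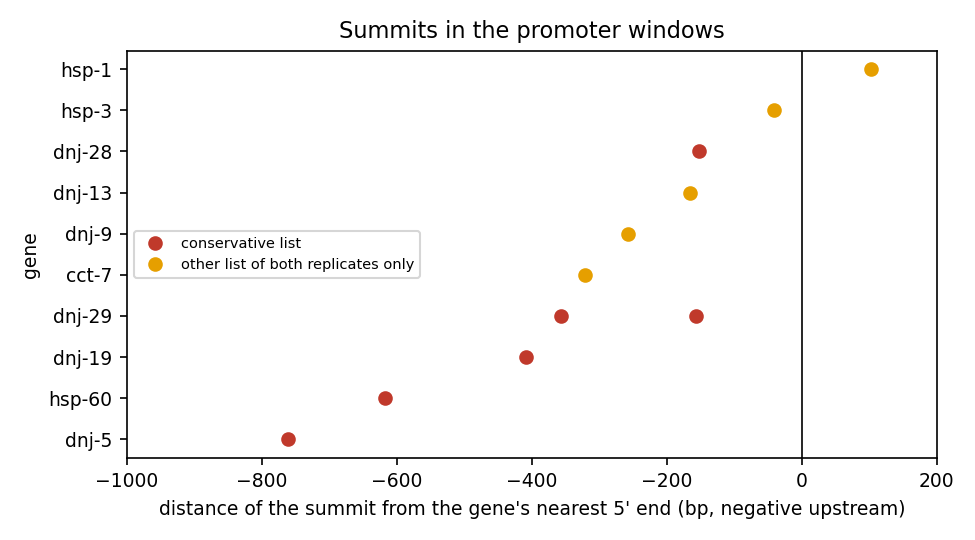
Distance in bp of each thresholded summit from its member's nearest 5′ end, negative upstream, 1 line per gene. Points are coloured by list; 9 of the 10 strongest summits lie upstream, from 41 bp at hsp-3 to 761 bp at dnj-5, with hsp-1 at 103 bp downstream, and dnj-29 has a second, weak summit.

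Over the 10 members in the other list, the median distance to the 5′ end was -212 bp, against -283.5 bp for the 694 genes with a summit in that list. In the conservative list the order was reversed, with -409 bp for 5 members and -274 bp for 594 genes. Back in the other list, the nearest 5′ end to the summit belonged to the member for 7 of 10, against 78.7% of all genes with a summit. At dnj-19, hsp-60 and cct-7 it belonged to the neighbour. A summit shared with another protein-coding gene's window was present at 6 of the 10, against 40.6% of all genes with a summit. None of the 10 lay within 200 bp of a tRNA, snoRNA, snRNA or miRNA gene. The closest was a snoRNA gene 984 bp from the hsp-1 summit, followed by a tRNA gene 5777 bp from that of dnj-5. Annotated 5′ ends in C. elegans often mark a trans-splice site and not the start of transcription, so the distances are to annotated ends.

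The 6 hsp-16 genes form divergent pairs on chromosome V, and all 6 lacked a summit in each of the 4 thresholded lists. At hsp-16.2 and hsp-16.41, 1 candidate of both replicates, V:1805131-1805434, lay in both windows. Its signal was 48.1, in the 89.3 percentile of all candidates, and its −log10 IDR was 1.13, below the value of 2 that an IDR of 0.01 needs. Its summit at 1805283 was not in the 220 bp with the heat shock elements: it fell 105 bp downstream of the hsp-16.41 5′ end, in its coding sequence. The peak itself began at 1805131, inside those 220 bp, and covered the TTCTAGAA at their end. Replicate 1 gave 27.4 with a summit at 1805288, and replicate 2 gave 26.2 with a summit at 1805490.

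The other 4 hsp-16 genes lie in a perfect inverted repeat. The gene pair of hsp-16.1 and hsp-16.48 (V:9087293-9088617) and that of hsp-16.49 and hsp-16.11 (V:9089280-9090604) were identical at 1325 of 1325 bp, and the identical run went on for 1881 bp in each copy, with 414 bp between the copies. None of these 4 genes had a candidate of both replicates in its window. A candidate of signal 52.0 stood in the unique stretch between the copies, with its summit at 9089071, 1006 bp upstream of hsp-16.11 and so just outside the window of 1000 bp. Each replicate alone also had a candidate in this stretch, and neither had a thresholded call. That of replicate 1 had its summit at 9089041, outside the window, with a signal of 32.6. That of replicate 2 had its summit at 9089095, 982 bp upstream and inside the window, with a signal of 18.95. Within the copies, the candidates of both replicates had 1 summit, at 9091032 in a snRNA gene, with a signal of 40.0. It stood at the edge of the identical run, which ended at 9091036, and the peak went on to 9091183 outside it. Reads from identical copies cannot be placed by sequence, and the authors' treatment of such reads was not given in the sources used here. An empty window there does not show that the protein was absent.

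Beyond hsp-16, hsp-70 was the only member classed here as heat-inducible, and it had a strongest candidate of signal 29.3 and no thresholded summit. The class was set from outside these data, which hold no heat treatment. Members outside the class, those with a thresholded summit included, may respond to heat too. None of the other 7 small heat shock protein genes had a thresholded summit either. Their strongest candidates ran from 19.3 at hsp-12.2 to 50.6 at hsp-12.1, with none at hsp-12.3, hsp-12.6 and hsp-17. The absence of thresholded sites was thus shared by all 13 small heat shock protein genes, of which 6 had a candidate. Beside the 2.97% of all genes, a count of 0 among 13 genes is near the background.

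Among the 11 chaperone genes of the ER and mitochondria, 2 (18.2%) had a conservative summit, dnj-29 and hsp-60, and 3 had one in the other list with hsp-3, beside 2.97% and 3.47% of all genes. The class count rests on 2 genes, and with the nearest 5′ end at any distance it was 1 (9.09%, against 5.68% of all genes). Without a thresholded summit, hsp-6, the mitochondrial HSP70, had a signal of 68.2 with replicates at 34.3 and 39.8. Its −log10 IDR was 1.99 in the ranking used for candidates here, just short of the threshold, and 1.21 in the other ranking of both replicates. The J protein gene dnj-10, a homologue of mitochondrial TID1, had 71.0 with replicates nearly equal at 33.0 and 32.0. The second BiP gene, hsp-4, had 61.9 and a candidate in replicate 2 only. The lowest was hsp-75, the mitochondrial HSP90, at 14.8, with no candidate of either replicate under it. Only dnj-7 of the 11 had no candidate.

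Among the 21 constitutive cytosolic genes, 1 (4.76%) had a conservative summit, dnj-19, and 4 had one in the other list with cct-7, dnj-13 and hsp-1. Beside the 2.97% of all genes in the conservative list, 1 of 21 is near the background, and in the other list 4 of 21 stood beside 3.47%. The CCT complex is built from 8 different subunits in equal numbers, but the strongest candidates of its genes ranged from 31.9 at cct-5 to 90.5 at cct-7, with 62.1 at cct-6 and 56.5 at cct-2. At cct-6 the replicates were close, at 36.1 and 30.7, while at cct-2 they were 17.6 and 42.7. All 8 had a candidate, and 1 had a thresholded summit. Prefoldin genes ran from 24.8 at pfd-2 to 59.9 at pfd-1, with none at pfd-4 and no thresholded summit among the 6. The cytosolic HSP90 gene hsp-90 had 49.0, hsp-110, an exchange factor of HSP70, had a candidate with replicates at 23.7 and 45.4, and sti-1, which bridges HSP70 and HSP90, had 25.3.

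The 20 J protein genes without a place assigned here gave 2 conservative summits, dnj-5 and dnj-28, and 3 in the other list with dnj-9, beside 2.97% and 3.47% of all genes. Replicate 1's own list held 0 of the 20 and replicate 2's own list held 2. Below the thresholds, the strongest was dnj-11, a homologue of the ribosome-associated MIDA1, at 65.8 with replicates at 33.8 and 30.4. The lowest candidate was at dnj-30, at 21.5, and 5 of the 20 had none. The gene stip-1 had a candidate of 65.3, with replicates at 38.2 and 28.3, and no thresholded summit. No class was compared with another by a test, since a class holds few genes and all come from the same 2 libraries.

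**Figure D3:**
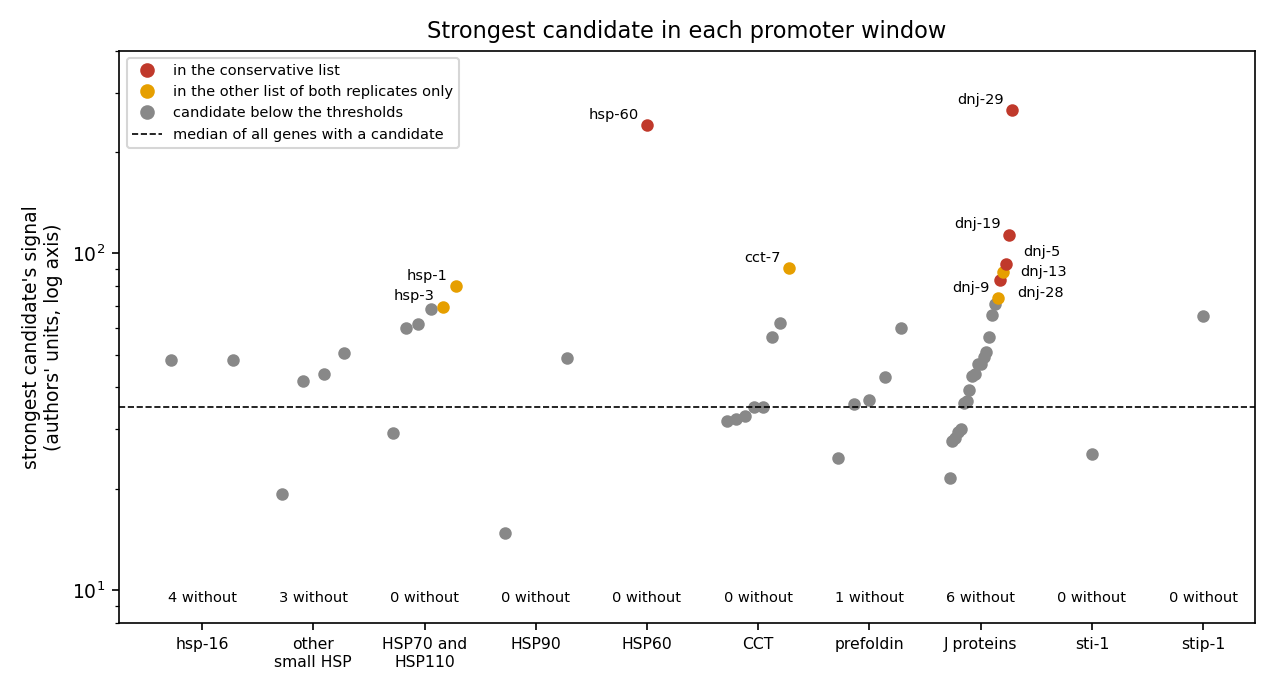
Signal of the strongest candidate of both replicates in each member's promoter window (vertical log axis, authors' units), by gene family, 1 point per gene. The dashed line is the median of all genes with a candidate, 35.1; dnj-29 at 267 and hsp-60 at 240 stand apart, and the 2 equal hsp-16 points are 1 shared candidate.

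Candidates were too common to mark a promoter on their own. They covered 27.4% of the nuclear genome, and 53 of 67 members (79.1%) had one in the window, against 64.3% of all genes. The strongest candidate was above the median of all genes with a candidate, 35.1, for 38 members, 56.7% of the 67, against 32.1% of all nuclear protein-coding genes. The members' median was 47.1 over the 53 with a candidate. Windows had the same median length of 1201 bp in both sets, and the median number of candidates was 2 for members and 1 for all genes. The strongest of several candidates is by construction at least as high as any one of them, and the part of this in the difference was not tested.

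In each replicate alone, both had a candidate under the strongest one for 38 of the 53 members, only replicate 1 for 8, only replicate 2 for 6 and neither for 1. Over the 38, of which hsp-16.2 and hsp-16.41 share 1 candidate, the signals of the replicates had a Spearman rho of 0.49 and a Pearson r of 0.67 on the log2 scale. These points share the libraries and their depth, and the correlation is given as a description.

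**Figure D4:**
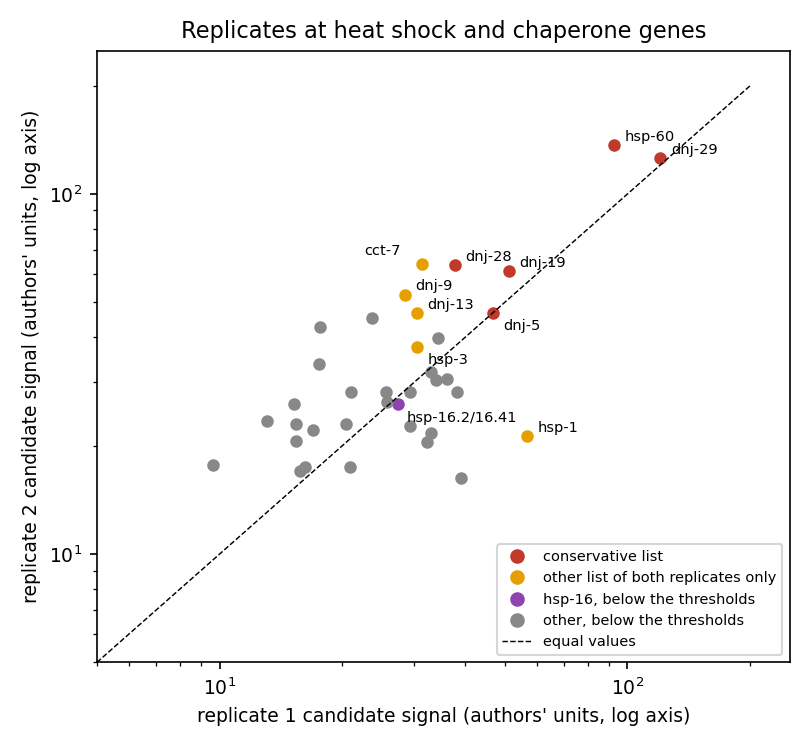
Candidate signal in replicate 1 (horizontal) and replicate 2 (vertical), in authors' units on log axes, at each member with a candidate in both; the 2 hsp-16 genes are 1 point. The dashed line marks equal values; dnj-29 and hsp-60 are highest in both replicates, and hsp-1 lies to the right at 56.7 against 21.2.

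The heat shock element pairs were counted on both strands in the 300 bp from 250 bp before to 50 bp after the most upstream 5′ end. GAANNTTC was present in 41.8% of members (28 of 67) and 18.5% of all promoters. TTCNNGAA was present in 35.8% of members (24) and 18.9% of all promoters. All 6 hsp-16 promoters held both, but they are not 6 separate sequences. Those of hsp-16.1, hsp-16.48, hsp-16.49 and hsp-16.11 lie in the identical copies, and those of hsp-16.2 and hsp-16.41 overlap. In the HSP70 family 4 of 6 promoters and among CCT genes 5 of 8 held each, and the 29 J protein promoters held them in 31.0% and 10.3%. Among the other 7 small heat shock protein promoters, which like those of hsp-16 had no thresholded summit, 0 held GAANNTTC and 1 held TTCNNGAA.

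In the 201 bp centred on each summit (100 bp to either side), GAANNTTC was present at 3 of the 10 members (dnj-13, dnj-19 and hsp-60) and TTCNNGAA at 1, hsp-60. The shares at all 1559 summits of the other list of both replicates, which holds all 10, were 7.76% and 6.8%. Those 1559 were not limited to promoter windows of protein-coding genes, as the 10 were, so the 2 sets differ in kind. GAGAGA was present at 3 of the 10, against 25.3% of all summits, and GCGCGC at 2 of the 10, hsp-60 and hsp-3, against 11.1%. TAATTA, the core that many homeodomain proteins bind, was at 0 of the 10 and at 78 of the 1559. The median GC content was 48.01% at the 10 and 48.26% at all. A match is a run of letters and does not show that a factor was bound.

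The other genes of protein folding were taken from a list of 40 genes that the name rule does not cover. That list was chosen with earlier results of these data known, so no conclusion is drawn from its share beside that of all genes. Of these, 8 had a conservative summit, against the 2.97% of all genes given above. A mixed class of heat shock regulators, co-chaperones and further heat shock genes had 3 of 19. These 3 were bag-1 and the HSP70 genes F44E5.4 and F44E5.5, which share 1 summit. ER folding and the unfolded protein response had 5 of 15 genes, and the mitochondrial unfolded protein response had 0 of 6. The count depended on the list. Of the 40, replicate 1's own list held 1, against 1.08% of all genes. Replicate 2's own list held 4, against 2.08%, with none in both. For ER folding each own list held 1. The own lists are shorter, with 464 and 732 peaks against 1313 in the conservative list. They also held fewer of all genes, 215 and 415 against 594, so a lower count there is not particular to these 40. The F44E5.4 and F44E5.5 genes, a divergent pair of heat-inducible HSP70 genes, shared 1 site with a signal of 98.8 and replicates at 35.5 and 69.3. A thresholded site was thus present at a heat-inducible pair whose names the rule does not cover. The site of bag-1, a nucleotide exchange factor of HSP70, had a signal of 109 with replicates at 52.6 and 63.8.

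In the ER, sites were present at atf-6 and xbp-1, transcription factors of the unfolded protein response, at enpl-1 (the HSP90 of the ER), at cnx-1 (calnexin) and at pdi-2 (a protein disulphide isomerase). The atf-6 signal was 110 with replicates at 60.2 and 45.2. The cnx-1 signal was 109 with replicates at 39.0 and 61.9. The pdi-2 signal was 104 with replicates at 51.2 and 57.9, and that of enpl-1 was 99.3 with replicates at 54.9 and 39.7. The xbp-1 signal was 78.2, with 45.02 in replicate 1 and no overlapping candidate in replicate 2, and this gene was not in the other list of both replicates. The regulators hsf-1 at 32.0, ire-1 at 27.3 and pek-1 at 43.7 had only candidates. Of the mitochondrial genes, clpp-1, a protease subunit, was in the other list only, at 79.8, and atfs-1, the transcription factor of this response, had a candidate of 33.1. The closest small RNA gene to any of the 8 genes' summits was 1858 bp away, at cnx-1.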

How the data were processed

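The data were ChIP-seq peak lists of 2 biological replicates of 1 group. Per the deposited notes, peaks are on build ce11 and derive from the authors' alignments. The aligner, the peak caller and the number of reads were not given in the sources used here. No interval could be computed. Each deposited peak has a signal from the authors' peak caller, used within a list only or side by side between replicates. The score deposited with each peak is lower for a higher IDR. It ends at 830 in thresholded lists, an IDR of 0.01. The −log10 of the IDR was deposited in the ranked lists.

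Gene models came from Ensembl release 115 (WBcel235, the same assembly). Coordinates are 1-based. The name rule was read as allowing a decimal part, as in hsp-16.2. Ensembl gives 2 symbols to 2 genes each, and RefSeq symbols at the same coordinates (hsp-16.11, hsp-16.49) were used. A member counted when a summit fell in its window, and the window finder was tested on simulated peaks. Members, lists, classes and words were chosen with earlier results of these data known. Named genes are all members in a thresholded list of both replicates, all hsp-16 genes, other folding genes with a conservative summit, and the highest and lowest of each class; hsf-1, ire-1, pek-1, atfs-1, clpp-1 and members between these were named after their values were seen. Replicates were left out in turn by using the other's own list. Further alternatives changed the list, threshold, window, assignment and rule. Python 3.11.15, pandas 2.3.3, numpy 2.4.6 and matplotlib 3.10.9 were used. Sequences came from the RefSeq genome of WBcel235.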

Additional observations from a re-analysis of the deposited data

How the results depend on the processing

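The count of members with a summit was 5 and stayed between 4 and 7 when either replicate was left out. It moved to 10 in the other list, to 2 (dnj-29 and hsp-60) at an IDR of 0.001, and to 3 with 500 bp upstream. With each summit given only to its nearest 5′ end, at any distance and without the window, it was 4 (5.97%, against 5.68% of all genes). These were dnj-5, dnj-24, dnj-28 and dnj-29, so hsp-60 and dnj-19 were not among them. Of these, dnj-24 had no thresholded summit in its window. The hsp-16 count was 0 under all alternatives run, but a stricter threshold, a shorter window or left-out sites could only keep it at 0. The ER and mitochondrial count of 2 moved to 1 with 500 bp upstream and to 1 with the nearest 5′ end. The constitutive cytosolic count of 1 moved to 4 in the other list, to 0 at an IDR of 0.001 and to 0 with the nearest 5′ end, and ran from 2 to 3 when a replicate was left out. Among genes with a candidate, the share of all genes with a summit was 4.63% in place of 2.97%. The other 34 values, the hsp-16 counts of 0 among them, kept within 1.5 times. The cause of these moves was not tested beyond the construction of each alternative. No paired analysis was possible because there is 1 group. The read depth is unknown, so a missing site cannot be told from one below detection.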
